A study of Arabidopsis thaliana with 12 samples.

Results

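In mature leaves of the Arabidopsis quadruple mutant ddcc, 163 nuclear genes outside the transposable element annotation were selected as raised above the wild type. They were chosen by the leaf RNA-seq values themselves: a Col-0 mean of at least 4 on the log2 scale, a ddcc mean at least 1.5 above it, and every ddcc library above every Col-0 library. The rule took 163 of 15337 genes that reached the Col-0 minimum (1.06%), of 21855 nuclear identifiers without a suffix and of 23151 identifiers listed in the leaf table. For these 163 genes the difference between ddcc and Col-0 is therefore a description, and no test of it is reported. The largest set among them encoded the photosynthetic apparatus: 15 light-harvesting antenna genes, 18 genes of the photosystems and electron transport and 8 genes of carbon fixation.

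Col-0 is the wild-type Columbia accession. The ddcc plants carry mutations in DRM1, DRM2, CMT2 and CMT3, the methyltransferases of non-CG sites, and met1-3 plants carry a mutation in MET1, which maintains CG methylation. All plants were untreated and grown in long days. The labels describe Col-0 and ddcc as mature leaves of 5 weeks and met1-3 as young shoots of 2 weeks, while the methods speak of aerial parts, cleared of inflorescences in the plants of 5 weeks. There were 3 libraries in each of these groups. No wild type of 2 weeks and no ddcc of 2 weeks was used here, so genotype, age and tissue cannot be told apart for met1-3, and its values were normalized in a table of their own. The files labelled met1-3 mature leaves hold wild-type reads a second time and were not used. Nothing in the sources used here says how many plants a library pools or whether libraries of a group came from separate plants, so the spread between libraries may be partly technical.

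Photosynthesis in a leaf cell rests on proteins of both the plastid and the nuclear genome. Nuclear genes encode all antenna proteins, which bind chlorophyll and pass light energy to photosystem II and photosystem I, the small subunit of Rubisco, and many small photosystem subunits, and their transcripts are among the most abundant in leaves. Transcription of these genes is known to respond to light, sugar and the state of the plastid. DNA methylation outside the CG context, by contrast, is known mainly for keeping transposable elements silent.

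The libraries held between 10105057 and 13989374 reads on listed identifiers. Among leaf libraries, the plastid share of reads was 58.8% ± 0.9 in the wild type and 65.0% ± 0.7 in the mutant (SD, n = 3), which moved with genotype in the same direction as the nuclear photosynthesis genes; its part in their difference was not tested. Of the mutated genes, DRM2 had a mean of 5.91 in Col-0 and 4.35 in ddcc, CMT2 had 6.93 and 7.52, and CMT3 had 5.55 and 5.19, so transcripts of CMT2 and CMT3 were still counted in ddcc. DRM1 was at or near 0 in all leaf libraries. Among the marker lists, all 4 leaf mesophyll markers were higher in every ddcc library (summed level 31559 to 37727 normalized reads against 68150 to 74218 in ddcc), but RBCS1A, CAB2 and CA1 of these are themselves among the 163 genes. The 7 flower markers summed to 33.5 to 64.4 normalized reads in the wild type and 29.9 to 42.0 in ddcc. None of the 5 seed storage markers was listed, and of the 3 meristem markers STM alone was listed. In whole tissue, more cells of a type and more RNA per cell cannot be told apart.

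The sequences that a reader can set beside these values are short stretches upstream of 7 photosynthesis genes, which are shown because each holds the G-box CACGTG, a hexamer bound by bHLH and bZIP factors and long known from light-regulated genes. They were read from TAIR10.1, are written 5′ to 3′ on the strand of the gene with the G-box in capitals, and end before the annotated gene start. They lie at chr3:10255791-10255850 (+, LHCB2.3), chr5:208765-208824 (+, LHCB4.1), chr5:15382162-15382221 (-, RBCS2B), chr4:11334242-11334301 and chr4:11334270-11334329 (+, both PSBQA), chr1:19052617-19052676 (-, AT1G51400, a small photosystem II protein) and chr3:7377227-7377266 (-, PSBTN). The last stretch lies between LHCB6 and its neighbour AT1G15830, at chr1:5447881-5448059 (written on the + strand).
LHCB2.3: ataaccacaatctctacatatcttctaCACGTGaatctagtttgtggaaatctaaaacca
LHCB4.1: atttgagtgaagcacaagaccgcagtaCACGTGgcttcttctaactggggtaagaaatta
RBCS2B: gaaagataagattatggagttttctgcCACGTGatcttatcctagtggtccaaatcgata
PSBQA, first: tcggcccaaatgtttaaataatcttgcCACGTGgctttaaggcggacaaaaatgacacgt
PSBQA, second: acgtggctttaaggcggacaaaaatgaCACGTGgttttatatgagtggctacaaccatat
AT1G51400: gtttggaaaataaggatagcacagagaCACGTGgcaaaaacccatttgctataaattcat
PSBTN: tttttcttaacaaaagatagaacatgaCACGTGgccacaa
LHCB6 and AT1G15830: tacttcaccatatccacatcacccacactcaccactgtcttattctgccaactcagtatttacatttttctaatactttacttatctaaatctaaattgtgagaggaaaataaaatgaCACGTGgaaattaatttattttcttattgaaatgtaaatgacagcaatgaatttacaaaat

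The G-box, searched as CACGTG on both strands from 250 bases before to 50 bases after the gene start, was found in 14 of the 163 windows (8.59%) and in 1421 of 15322 windows of all genes with a Col-0 mean of at least 4 (9.27%). By groups made after the values were seen, it was in 8 of 41 windows of photosynthesis genes (19.5%) and in 6 of the other 122 (4.92%). In LHCB2.3 the hexamer begins 88 bases before the start and in PSBTN 13 bases before it. PSBQA holds 2 copies, at 83 and 55 bases before the start. LHCB6, a minor antenna protein, and AT1G15830, an uncharacterized protein, are transcribed away from each other and share the only G-box in the 179 bases between them. PSAE-1 has a match just after its start, which is not shown. Each match is a string of letters and not a measured binding site. The core ACGTG, which the G-box contains, was in 34.4% of the 163 windows against 27.9% of all 15322. The W-box TTGAC was in 41.1% against 50.8%, the CRT/DRE core CCGAC in 13.5% against 16.9%, and the site II element TGGGCC in 10.4% against 20.6%. The heat shock element GAANNTTC, the evening element AAATATCT and the telo-box AAACCCTA were in 9.82%, 6.75% and 3.68% of the members and in 11.6%, 5.78% and 5.72% of all windows.

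Over the 163 genes the difference ranged from 1.501 to 4.42, with a median of 1.78 (3.43-fold), while the median over the 15337 genes was -0.05. Values are log2 of reads divided by a size factor, plus 1, so a fold change of a low gene is understated. For 56 genes the difference was at least 2 and for 5 it was at least 3. Together these genes made up 1.41% ± 0.17 of nuclear reads in the wild type (SD, n = 3) against 5.22% ± 0.05 in ddcc. In the wild type the share was 1.60% in replicate 1, 1.34% in replicate 2 and 1.28% in replicate 3, and Col-0 replicate 1 held the highest wild-type value for 102 of the 163 genes. The spread between libraries was wider for these genes in Col-0, with a median SD of 0.33 against 0.18 over all 15337 genes, and alike in ddcc (0.18 and 0.18).

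**Figure D1:**
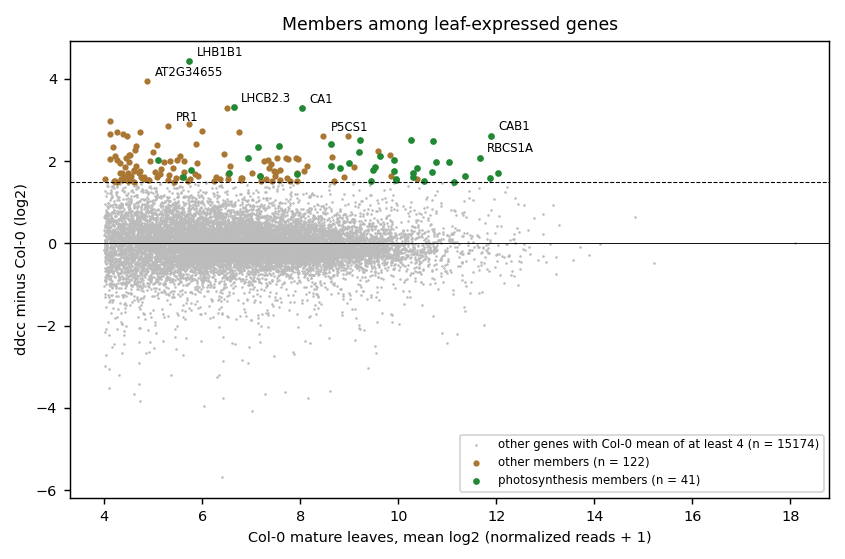
Difference between ddcc and Col-0 mature leaves (log2) against the mean of the 3 Col-0 libraries (log2 of normalized reads + 1) for the 15337 genes with a Col-0 mean of at least 4. The 41 photosynthesis genes (green) reach up to a Col-0 mean of 12.03 (LHB1B2), the highest of all members. Genes outside the rule lie higher, such as RCA at 14.82, and the dashed line marks the minimum difference of 1.5.

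The requirement that the groups not overlap removed no gene, since each gene with a difference of at least 1.5 had every ddcc value above every Col-0 value. By that criterion alone 2925 of the 15337 genes (19.1%) were separated in this direction. The genes nearest inside the minimum difference were AT5G44568 (1.501), the zinc finger gene AT5G44260 (1.501) and LHCA2 (1.504), and those nearest outside were AT4G34220 (1.498), AT2G04570 (1.485) and AT5G13430 (1.483). At the Col-0 minimum the nearest inside were TAS3 (4.005), AT2G44240 (4.11) and LBD39 (4.11), and the nearest outside were sks4 (3.95), BBX17 (3.95) and ATPMEPCRB (3.95). The narrowest gaps between the groups were those of ASN1 (0.08), PRR1 (0.43) and ACS11 (0.51).

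The antenna genes held the largest difference of all. LHB1B1, which encodes an LHCB1 protein of the trimeric antenna of photosystem II, lies at chr2:14524607-14525918 (+) and has no annotated intron. Its values were 6.71, 5.39 and 5.11 in the Col-0 replicates 1 to 3 and 10.56, 10.08 and 9.84 in ddcc, a difference of 4.42 ± 0.54 (SE), or 21.5-fold. Col-0 replicate 1 was thus the highest wild-type library, and the lowest ddcc library was still 3.13 above it. The neighbouring LHCB1 gene LHB1B2, at chr2:14522524-14523568 on the opposite strand, had 12.24, 11.99 and 11.86 in Col-0 and 13.74, 13.68 and 13.83 in ddcc, a difference of 1.72 ± 0.12. Only 1038 bases separate the starts of this pair, and per kb of exon they stood at 45.2 and 4020 normalized reads in the wild type, against 890 and 13209 in ddcc.

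The other 3 LHCB1 genes form a run on chromosome 1. CAB1 had 12.36, 11.82 and 11.49 in Col-0 and 14.66, 14.43 and 14.44 in ddcc. The differences were 2.62 ± 0.27 for CAB1, 2.49 ± 0.22 for CAB2 and 2.04 ± 0.22 for CAB3. In level, per kb of exon, CAB1 stood first in both genotypes, with 3189 normalized reads in the wild type and 19039 in ddcc, followed by CAB2 (1305 and 7167) and CAB3 (803 and 3238). Among the LHCB2 genes, which supply the second kind of protein in the trimer, the one with the lowest level differed most. LHCB2.3 had 7.53, 6.40 and 6.01 in Col-0 and 10.01, 9.92 and 9.96 in ddcc (3.32 ± 0.45), against 2.52 ± 0.24 for LHCB2.2 and 1.60 ± 0.11 for LHCB2.1. Per kb their Col-0 levels were 75.2, 1102 and 2693 normalized reads.

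LHCB3, the third trimer component, differed by 1.98 ± 0.21. The minor antenna proteins that link the trimers to the core followed with 1.83 ± 0.23 for LHCB6, 1.73 ± 0.10 for LHCB4.2, 1.65 ± 0.21 for LHCB5 and 1.62 ± 0.13 for LHCB4.1. Of the antenna of photosystem I, LHCA2 (1.504 ± 0.16) and the little expressed Lhca6 (2.04 ± 0.20) were members. These values sat within a narrower range than those of the trimer genes. Reads that map to several places were removed by the mapping quality filter, which touches near-identical copies: 86.3% of the 50-base exonic windows of LHB1B1 occurred once in the nuclear chromosomes, 82.7% of those of LHB1B2, 83.0% of CAB1, 79.5% of CAB2, 89.4% of CAB3, 76.5% of LHCB2.1 and 70.5% of LHCB2.2. How reads divide among these copies is therefore uncertain. Over all 163 genes the median was 100%, and 16 genes were below 90%, the lowest being AT3G22235 (14.3%).

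**Figure D2:**
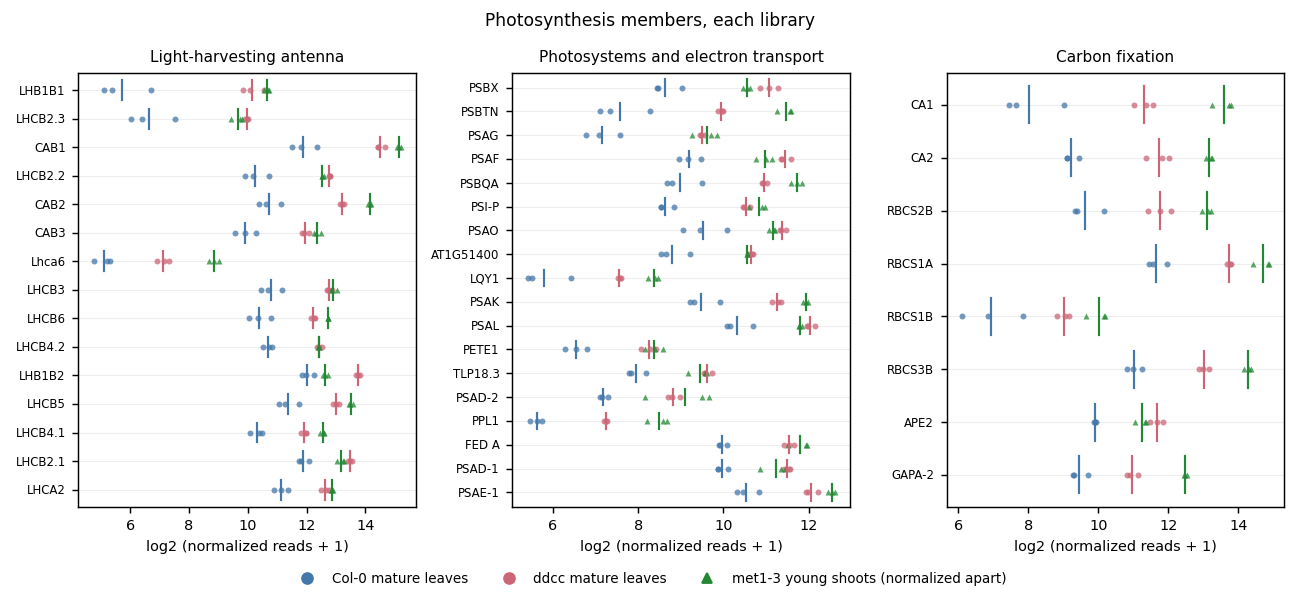
Level of each of the 41 photosynthesis genes in every library (log2 of normalized reads + 1). Points are libraries, vertical lines the means of 3, and the met1-3 young shoots (triangles) were normalized in another table. Every ddcc point lies to the right of every Col-0 point of its gene, with LHB1B1 the widest apart, and Col-0 replicate 1 is the right-hand Col-0 point for most genes.

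Genes of the photosystems and of electron transport differed by 1.51 to 2.43, with a median of 1.78. The photosystem I subunits were PSAG, PSAF, PSAO, PSAK, PSAL, PSAD-2, PSAD-1 and PSAE-1. PSAG, a small membrane subunit, had 7.58, 7.08 and 6.77 in Col-0 and 9.44, 9.48 and 9.56 in ddcc (2.35 ± 0.24). PSAF, which docks plastocyanin, differed by 2.23 ± 0.17. PSAD, on the stromal side where ferredoxin docks, has 2 gene copies that differed by 1.54 ± 0.09 (PSAD-1) and 1.64 ± 0.10 (PSAD-2). On the photosystem II side, PSBX had 9.02, 8.46 and 8.43 in Col-0 and 10.86, 11.07 and 11.27 in ddcc (2.43 ± 0.23). It was followed by PSBTN (2.37 ± 0.36) and by PSBQA of the oxygen-evolving complex (1.96 ± 0.26). Factors of photosystem II repair were present too, with LQY1 at 1.78, TLP18.3 at 1.68 and PPL1 at 1.62. The mobile carriers were the minor plastocyanin PETE1 (1.70 ± 0.18) and the ferredoxin FED A (1.58 ± 0.09).

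In carbon fixation, the carbonic anhydrases CA1 and CA2, which interconvert carbon dioxide and bicarbonate, stood apart from the rest. CA1, at chr3:194426-198664 (-), had 9.01, 7.65 and 7.45 in Col-0 and 11.58, 11.36 and 11.03 in ddcc, a difference of 3.29 ± 0.52. CA2 had 9.46, 9.11 and 9.11 in Col-0 and 12.01, 11.83 and 11.38 in ddcc (2.51 ± 0.22). All 4 genes of the Rubisco small subunit were members, and their differences lay close together: 2.12 ± 0.32 for RBCS2B, 2.09 ± 0.16 for RBCS1A, 2.08 ± 0.51 for RBCS1B and 1.98 ± 0.15 for RBCS3B. Per kb their Col-0 levels reached from 72.2 normalized reads for RBCS1B to 2581 for RBCS1A, so like differences were seen over a wide range of levels. GAPA-2, a Calvin cycle dehydrogenase subunit, differed by 1.51 ± 0.17, and APE2, the translocator that exports triose phosphate from the plastid, by 1.76 ± 0.11.

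Not all genes of this apparatus met the rule. A word match in the RefSeq product (photosystem, light-harvesting, chlorophyll a/b binding, oxygen-evolving complex, Rubisco small subunit) took 53 nuclear genes, of which 30 were members. The list was made after the values were seen. It is not complete, since the members PSAE-1 and AT1G51400 are absent from it, so the counts hold for the matched genes only. Of the other 23, 22 had a higher mean in ddcc and 19 had every ddcc value above every Col-0 value, with a median difference of 1.12. Over all 15337 genes 19.1% were separated in this way, and the median was -0.05. When the libraries were scaled by total counted reads, which include those of the plastid, 20 of the 23 were higher. The separated genes were then 15 of the 23, and the median was 0.80. PSAH-1 (1.48), PSAH2 (1.46), PSBP-1 (1.42), PSB27 (1.42), PSBY (1.40), LHCA4 (1.38) and LHCA3 (1.36) fell just short of the minimum. PSBR (0.45), LHCB4.3 (0.42), Lhca5 (0.31) and PSB28 (0.22) were closer to 0, and the assembly factor LPA19 was at -0.35. Paralogs could differ: PSAE-1 had 1.51 and PSAE-2 0.84, and LHCB4.1 and LHCB4.2 had 1.62 and 1.73 where LHCB4.3 had 0.42.

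A further 10 members encode other plastid proteins. PORB, which makes chlorophyllide in the light, had 4.15, 4.45 and 4.88 in Col-0 and 6.41, 6.60 and 6.45 in ddcc (1.99 ± 0.22). PRXQ, a thioredoxin-dependent peroxidase, differed by 2.37 ± 0.28, PTAC16, a protein of plastid nucleoids, by 2.10 ± 0.26, the glutathione peroxidase GPX1 by 2.06 and the plastid ribosomal protein RPL12-A by 1.72. For PORB the 3′ end overlaps that of AT4G27450, also a member, by 71 bases on the opposite strand. The strand setting of the read counting is not given in the sources used here, so reads in that overlap cannot be assigned. In all, 46 members overlap another annotated gene, 41 of them a gene on the opposite strand.

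A further 10 members, grouped by hand after the values were seen, are tied to the carbon and nitrogen status of the plant. The paralogs LBD37, LBD38 and LBD39, nitrate-responsive repressors of anthocyanin and nitrogen-metabolism genes, were all members. LBD39 had 4.31, 4.13 and 3.89 in Col-0 and 6.84, 7.05 and 6.45 in ddcc (2.67 ± 0.21). LBD37 differed by 1.87 ± 0.11 and LBD38 by 1.77 ± 0.41. CLC-A, which loads nitrate into the vacuole, differed by 1.77 ± 0.26, and GDU4, of a family that promotes amino acid export, by 1.505. P5CS1, which catalyses the first step of proline synthesis, had 9.14, 8.08 and 8.19 in Col-0 and 10.97, 11.17 and 11.09 in ddcc (2.60 ± 0.34).

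In the same group, 3 members are known from darkness and sugar starvation. DIN10, a raffinose synthase family gene, had 6.93, 7.61 and 7.68 in Col-0 and 9.74, 9.57 and 8.69 in ddcc (1.93 ± 0.40). AKINBETA1, a regulatory subunit of the SnRK1 kinase, had 6.35, 6.35 and 6.38 in Col-0 and 7.89, 8.11 and 7.82 in ddcc (1.58 ± 0.09), the tighter of the pair. ASN1, an asparagine synthetase, had 5.77, 5.01 and 4.62 in Col-0 and 7.43, 7.17 and 5.84 in ddcc (1.68 ± 0.60). Its ddcc replicate 3 lay only 0.08 above Col-0 replicate 1, so the groups of ASN1 barely separate, and they overlap when the libraries are scaled by total counted reads.

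Enzymes and transfer proteins of the cuticle, the lipid layer over the epidermis, made up most of 14 lipid-related members. GPAT8 and GPAT4, acyltransferases of cutin synthesis, differed by 2.12 ± 0.41 and 1.53 ± 0.07. DCF, which is needed for the ferulate in cutin, differed by 1.51 ± 0.24. CER1, which makes the alkanes of cuticular wax, had 4.23, 4.89 and 4.11 in Col-0 and 7.01, 5.95 and 5.87 in ddcc (1.86 ± 0.44). The fatty acid elongase genes, KCS8 (1.87 ± 0.32) and KCS12 (1.73 ± 0.17), and the lipid transfer proteins LTP3 (1.95 ± 0.53) and LP1 (1.52 ± 0.27) were also members. The largest difference of the set was that of AT2G10940, a protein with a lipid transfer domain, at 2.62 ± 0.43. By keyword in the product, lipid transfer or lipid metabolism was the best filled family, with 12 of its 268 genes among the members (4.48%, against 1.06% of all genes), and the 3 highest by log2 mean in ddcc were ESM1 (11.84), LP1 (10.21) and AT2G45180 (9.60).

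Cell wall genes gave 10 members. EXPA16, an expansin that loosens walls, had 4.59, 5.36 and 5.04 in Col-0 and 7.53, 6.82 and 7.31 in ddcc (2.23 ± 0.31). AT4G16980, an arabinogalactan protein, differed by 2.27 ± 0.21, the extensin-like ELP by 1.83 and the fasciclin-like FLA9 by 1.76. BXL1, a beta-xylosidase, was the most abundant in Col-0 (9.86, 10.48 and 10.83) and reached 11.88, 12.28 and 11.72 in ddcc. In the keyword family of wall proteins 4 of 102 genes were members (3.92%), led in ddcc by AT3G10720 (8.87), ELP (7.24) and EXPA16 (7.22).

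**Figure D3:**
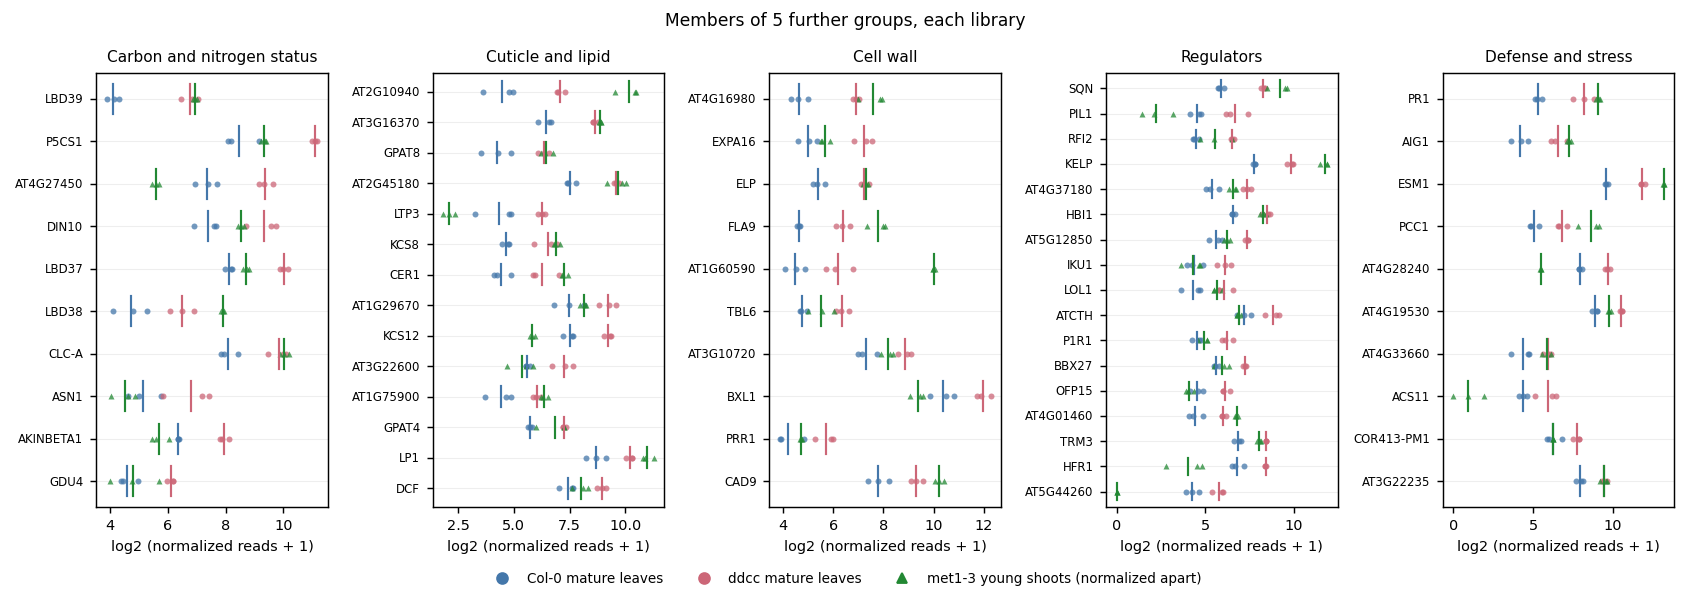
Level of each member of 5 further groups in every library (log2 of normalized reads + 1), in the same symbols as for the photosynthesis genes. Unlike those genes, several of these lie to the left in met1-3 young shoots (triangles), such as AT5G44260 at 0.00, LTP3 at 2.09 and PIL1 at 2.24.

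Among regulators, the bHLH genes PIL1 and HFR1 are known to be induced by shade. PIL1 had 4.77, 4.66 and 4.11 in Col-0 and 6.41, 6.14 and 7.41 in ddcc (2.14 ± 0.44). HFR1 had 6.51, 6.69 and 7.19 in Col-0 and 8.39, 8.35 and 8.43 in ddcc (1.59 ± 0.20). The growth-promoting bHLH gene HBI1 differed by 1.89 ± 0.15, RFI2, a RING protein of light signalling, by 2.07 and the B-box gene BBX27 by 1.62. A pair of members belongs to small RNA pathways: SQN, the cyclophilin that assists AGO1 (2.41 ± 0.13), and TAS3, the non-coding precursor of the small RNAs that target auxin response factors (1.56 ± 0.28). Of the keyword families, with levels again as log2 means in ddcc, 6 of 650 transcription factor genes were members (0.923%), against 1.06% of all genes. Transporters gave 3 of 511 (0.587%) and kinases 3 of 897 (0.334%). The kinase members highest in ddcc were AKINBETA1 (7.94), AT4G26540 (7.52) and AT5G18700 (7.32), and the transporters were CLC-A (9.84), AT2G20670 (9.46) and AT1G15180 (6.42). The leading transcription factor members were HBI1 (8.46), HFR1 (8.39) and the CCCH zinc finger gene AT5G12850 (7.36). Among oxidoreductases, 5 of 592 genes were members (0.845%), led by GAPA-2 (10.95), GPX1 (10.01) and CAD9 (9.31), an alcohol dehydrogenase of the lignin family. Among hydrolases and peptidases 4 of 616 were (0.649%), led by AT1G75460 (9.15), AT5G19120 (7.85) and AT1G03220 (7.65). The ubiquitin ligase and F-box keywords took 3 of 487 genes (0.616%), RFI2 (6.52), TBL6 (6.36) and AT2G41170 (6.10). Such families rest on words in the product alone, so a match need not give the function. Examples are AKINBETA1, a regulatory subunit, and TBL6. Members whose product lacks the words are missed, such as the translocator APE2 among transporters. The shares therefore hold for the matched genes only. No cytochrome P450 (0 of 87), glutathione transferase (0 of 28) or 2-oxoglutarate dioxygenase gene (0 of 54) was a member.

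In defense, PR1, the classical marker of salicylic acid responses, had 5.24, 5.58 and 5.11 in Col-0 and 8.16, 8.81 and 7.51 in ddcc (2.85 ± 0.40). AIG1, induced by a bacterial effector, differed by 2.35 ± 0.42 and PCC1 by 1.75 ± 0.26. ESM1, which steers the breakdown of glucosinolates, was abundant and tight, with 9.49, 9.67 and 9.57 in Col-0 and 11.77, 11.73 and 12.003 in ddcc (2.26 ± 0.10). COR413-PM1, a cold-regulated membrane protein, differed by 1.52 ± 0.32 and ACS11, an enzyme of ethylene synthesis, by 1.55 ± 0.44.

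The remaining 51 members have no assigned group, and 6 of the 10 largest differences were among them. AT2G34655, an uncharacterized protein, had 5.53, 4.93 and 4.18 in Col-0 and 8.68, 8.82 and 8.9996 in ddcc (3.95 ± 0.40), second after LHB1B1. AT5G35480 and MRU1 lie head to head on chromosome 5, 220 bases apart, and differed by 3.29 ± 0.13 and 2.90 ± 0.13. AT1G21500 differed by 2.97 ± 0.13. AT1G49500 (2.72 ± 0.78) was the least certain of the 10, since its Col-0 replicate 1 was at 7.32 and the others at 5.05 and 5.64. AT5G12050, annotated as a rho GTPase-activating protein, was even within the groups (2.72 ± 0.16).

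**Figure D4:**
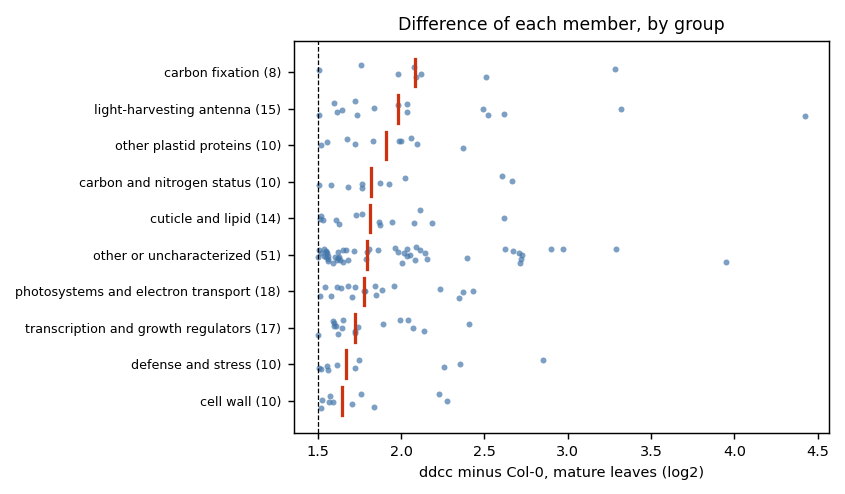
Difference between ddcc and Col-0 mature leaves (log2) of each of the 163 genes, by functional group with the number of genes in brackets. Red bars are group medians, from 1.65 for cell wall genes to 2.08 for carbon fixation genes, and the dashed line is the minimum of the rule.

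In position, 26 of the 163 genes (16.0%) lay in 12 runs of members with no other listed nuclear gene without a suffix between them, 10 runs of 2 and 2 runs of 3. The runs of 3 were CAB3, CAB2 and CAB1 on chromosome 1 and RBCS3B, RBCS2B and RBCS1B on chromosome 5, both clusters of like genes. Pairs of like genes were LHB1B2 and LHB1B1, LHCB2.2 and LHCB2.1, AT1G78820 and AT1G78830, AT2G29290 and AT2G29300, and PCC1 and AT3G22235. The remaining pairs joined unlike genes: LHCB6 and AT1G15830, FBA5 and AT4G26540, PORB and AT4G27450, AT4G33660 and AT4G33666, and AT5G35480 and MRU1. The 203 neighbours of members that had a Col-0 mean of at least 4 and were not members themselves had a median difference of 0.02. Of these neighbours 12 (5.91%) reached 1, against 3.38% of all 15337 genes. For 51 of the neighbours (25.1%) every ddcc value lay above every Col-0 value, against 19.1% of all genes. The shares of all genes include the 163 members, which meet both criteria by the rule, so the shares are not like for like.

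Transposable element genes, the identifiers with a suffix, were within 2 kb of 8 members (4.91%), against 2.24% of all 15337 genes. SQN overlaps such an element by 74 bases on the opposite strand, and the element had a mean of 0.59 in Col-0 and 4.46 in ddcc. Those beside ASN1 and AT3G23080 had 0.00 and 0.30 in Col-0 and 2.71 and 2.65 in ddcc. The element 207 bases from PSAK had 1.45 and 3.23. The element 12 bases from PSBTN had 0.29 and 0.36, that beside AT4G06534 had 2.68 and 3.15, and that beside AT5G27850 had 0.34 and 0.71. The element beside AT5G44260 was not listed. Without a stated strand setting, reads running across such borders cannot be told apart from those of the gene. Their part in the members' difference was not tested. The median distance to the nearest element was 109085 bases for members and 119187 bases for all genes.

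Members had a median exonic length of 1414 bases and a median of 2 introns, against 1868 bases and 4 introns over all genes. Members made up 2.37% of genes up to 600 bases, 2.03% of those of 600 to 900 and 1.81% of those of 900 to 1500. Their share was 0.847% at 1500 to 2500 bases and 0.436% above that. Non-member genes of 600 to 900 bases had a median difference of -0.06 (n = 821), and those of 900 to 1500 bases had -0.05 (n = 3735). A set of 291 non-member ribosomal protein genes, with a median length of 1029 bases, had -0.06. Genes that met the rule are left out of these medians, and the part of length was not tested.

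The surrounding pathways were read from 15 gene lists that were chosen with earlier results of these data known. Members were left out of the counts, since the rule had fixed their direction. Of 186 list genes outside the rule that entered the limma fit, 5 rose and 18 fell in ddcc (adjusted p under 0.01 and a difference over 1). Over all 17005 identifiers in the fit, members included, 3.9% rose and 1.16% fell (5.06% together), and over the 16614 nuclear ones without a suffix 3.18% rose and 1.16% fell. Scaling by total counted reads moved the median of all nuclear genes by -0.31, and the counts that it changed are given beside each list.

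In the cuticular wax list CER1 is a member, and of the other 12 genes 2 rose and 12 had a higher mean, with a median difference of 0.95, where the median over all tested identifiers was -0.03. CER10, a reductase of fatty acid elongation, rose by 1.36 (SE 0.22, limma adjusted p = 0.0025) and KCS1, an elongase, by 1.07 (SE 0.23, limma adjusted p = 0.0093). The count was 3 with total nuclear reads or limma-voom, 1 with total counted reads, and 5 of 11 without Col-0 replicate 1.

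Of 22 jasmonate genes 9 fell and 0 rose, with a median of -1.496 (limma, 0 higher also at an unadjusted p under 0.05 and with limma-voom). JAZ8, a repressor that is itself induced by jasmonate, had 5.46, 4.20 and 4.18 in Col-0 and 1.76, 0.00 and 1.07 in ddcc (limma adjusted p = 0.0022), and JAZ7 fell by 2.82 (limma adjusted p = 0.0019). Col-0 replicate 1 was the highest wild-type library for all 23 listed genes of this pathway. Without it the median was -0.88 and 9 of 21 fell. The count was 11 with total nuclear reads, 14 with total counted reads and 7 with limma-voom. The same library was highest for 11 of the 19 touch, wound and elicitor genes, of which 3 fell, among them MYB15 (-2.00) and WRKY40 (-1.98). For that list 5 fell with total nuclear reads, 6 with total counted reads and 5 without Col-0 replicate 1.

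In the flavonoid and anthocyanin list 3 of 13 fell, with 1 under limma-voom, 8 with total counted reads and 6 without Col-0 replicate 1. These included PAP2 and PAP1, activators of anthocyanin synthesis that the LBD genes above are known to repress, with differences of -3.65 (SE 0.50, limma adjusted p = 9.5e-04) for PAP2 and -2.69 (SE 0.37, limma adjusted p = 9.6e-04) for PAP1. The part of wound, jasmonate or nitrogen signals in the members' difference was not tested.

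Among salicylic acid genes other than PR1, PR5 rose by 1.36 and GRX480 fell by 1.61, of 14 tested. Of these 14, 10 had a higher mean, with a median of 0.29, and 6 were higher and 1 lower at an unadjusted p under 0.05 (limma). CYP707A3 of abscisic acid breakdown rose by 1.04, alone of 17, and no gene of that list rose under either total scaling or without Col-0 replicate 1. With total counted reads 2 genes of that list fell. SEN1 rose by 1.26, alone of 12 senescence genes, and did not pass with total counted reads, where 1 gene of that list fell. Only 4 of those 12 had a higher mean, with a median of -0.18. BCAT2 of branched-chain amino acid breakdown fell by 1.68 among 6 sugar starvation genes, and MAM3 of glucosinolate chain elongation fell by 1.501 among 18 (limma adjusted p between 6.8e-05 and 0.0052 for the genes named here). Yet 5 of the 6 sugar starvation genes had a higher mean, with a median of 0.42. At an unadjusted p under 0.05 (limma) 4 of them were higher and 1 was lower. In that list 1 gene rose with total nuclear reads, without Col-0 replicate 1 and with the replicate block. With total counted reads 2 of the 18 glucosinolate genes fell.

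In 6 lists 0 genes outside the rule passed with limma. Of 15 circadian clock genes 1 was higher and 7 were lower at an unadjusted p under 0.05, 0 passed with limma-voom and 1 fell with total counted reads. Of 9 heat shock genes 5 were lower at an unadjusted p under 0.05, 1 fell with limma-voom, 2 with total nuclear reads and 3 with total counted reads. Of 11 cold genes 0 were past an unadjusted p of 0.05 or passed with limma-voom. Of 5 iron genes 3 were higher and of 9 sulfur genes 3 were lower at an unadjusted p under 0.05, with 0 by limma-voom, and 1 iron gene rose without Col-0 replicate 1. Of 4 phosphate genes 1 was lower at an unadjusted p under 0.05, 0 passed with limma-voom and 1 fell with total counted reads.

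In met1-3 young shoots all 163 genes were listed, and their median was 8.27, within a range from 0.00 to 15.15. Since that table was scaled on its own, ranks were compared: in each library a gene's percentile was taken among the 20731 nuclear genes listed in both tables, without correction for length. The median percentile of the members was 54.6 ± 3.4 in Col-0 leaves (SD over 3 libraries), 85.6 ± 2.1 in ddcc leaves and 85.6 ± 1.3 in met1-3 shoots. For 129 members (79.1%) each met1-3 percentile was above each Col-0 percentile, against 28.5% of all genes, and for 12 (7.36%) it was below, against 38.4%. The rule had picked genes that were low in Col-0 leaves relative to ddcc, so these counts only describe, and age, tissue and genotype cannot be told apart in them. Against ddcc leaves, 57 members ranked higher in every met1-3 library and 64 lower.

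**Figure D5:**
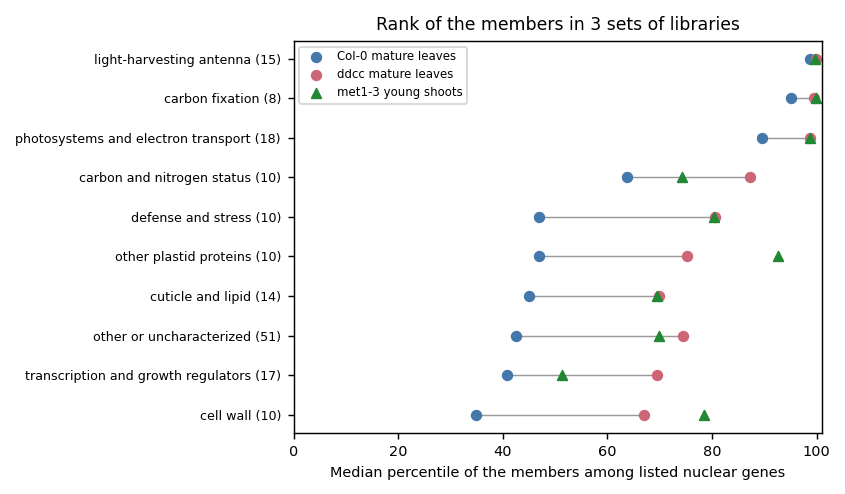
Median percentile of the members of each group among 20731 listed nuclear genes, as the mean over 3 libraries, in Col-0 leaves, ddcc leaves and met1-3 young shoots. Photosynthesis groups sit near the top in all 3, other plastid genes rank higher in met1-3 shoots (92.6) than in ddcc leaves (75.2), and regulators rank lower there (51.3 against 69.5).

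The groups differed in these ranks. All 18 genes of the photosystems and electron transport, all 8 of carbon fixation, all 10 other plastid genes and 14 of 15 antenna genes ranked above Col-0 leaves in every met1-3 library. The highest levels were those of CAB1 (15.15 ± 0.07, SD, n = 3), RBCS1A (14.72 ± 0.26), RBCS3B (14.28 ± 0.11), CAB2 (14.15 ± 0.05) and CA1 (13.59 ± 0.29). LHB1B2 was the antenna gene that did not meet that count, at 12.72, 12.55 and 12.64. Per kb of exon, LHB1B2 (6091 normalized reads) was below CAB2 (13856) in met1-3 shoots, whereas in both leaf groups it was above CAB2, as read within each table.

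The lowest member was AT5G44260, a CCCH zinc finger gene, with 0 reads in all 3 met1-3 libraries, which allows up to 3 reads in each. ACS11 had 0.00, 1.89 and 0.89, LTP3 had 2.09, 2.34 and 1.84, PIL1 had 2.09, 3.19 and 1.44, and the uncharacterized AT4G06534 had 1.06, 3.73 and 2.15. HFR1, like PIL1 a shade-induced bHLH gene, was at 4.82, 4.51 and 2.81. Only 9 of 17 regulators and 6 of 10 genes of carbon and nitrogen status ranked above Col-0 leaves in every met1-3 library. In the latter group LBD38 (7.90 ± 0.06) and LBD39 (6.93 ± 0.07) had means above those of ddcc leaves, while AT4G27450 (5.59 ± 0.12) and AKINBETA1 (5.71 ± 0.31) had means below those of Col-0 leaves, each on the scale of its own table.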

How the data were processed

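RNA-seq libraries of mature leaves (Col-0 and ddcc) and young shoots (met1-3) were analysed, 3 each. The methods name trimming of paired-end reads with Fastp (the submitters' processing notes name Trimmomatic), mapping to TAIR10 with Hisat2, removal of reads with a mapping quality under 30 and counting with HTSeq-count, with versions and strand setting not given in the sources used here. The deposited values are log2 of reads over a library size factor, plus 1, made by the authors per table. Undoing the log gave whole reads for 100% of values (tolerance 1e-06), and floors of 3 reads cover counting error only.

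The members and gene lists were chosen with earlier results of these data known. Genes named are the 10 largest differences, the 10 highest in Col-0, list members, family leaders, chromosomal neighbours, genes at the thresholds and the met1-3 extremes; further members of functional groups, and photosynthesis genes outside the rule, were named after their values were seen. All identifiers past the filter, members included, were fitted with limma 3.58.1 (R 4.3.3; lmFit, eBayes with trend) on the log2 values of the 6 leaf libraries, without covariates, and calls are reported for genes outside the rule and for the whole table. Genes needed 3 or more libraries above the level that 10 reads give at median depth, and 15 reads summed over libraries. The fit was tested on simulated data. SE of a member's difference is that of 2 means of 3 libraries.

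Positions, products, exons and sequences came from RefSeq TAIR10.1, matched by locus tag for all 163 genes. Groups by function were assigned by hand. Alternatives were other scalings, a pseudocount of 0.1, other thresholds and filters, limma-voom, a replicate block and each library left out; for the gene lists, the scalings, limma-voom and the fit without Col-0 replicate 1 were added after seeing the data. Replicate numbers were not taken as pairs, and nothing in the sources used here says whether they pair the samples. Files labelled met1-3 mature leaves (3) were not used.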

Additional observations from a re-analysis of the deposited data

How the results depend on the processing

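With each library left out in turn, the rule took 149 to 178 genes, 133 to 150 of the original 163, and their median difference was 1.75 to 1.90, highest without Col-0 replicate 1. With total nuclear reads as the only scaling, 133 genes were taken and the median was 1.71. Scaling by total counted reads moved the median of all nuclear genes by -0.31, to -0.32, and left 81 genes, 77 of them original. The median of the original 163 was then 1.45. A shift of that size could not reverse differences of at least 1.5, so their direction is no check. A minimum difference of 1 gave 506 genes, a Col-0 minimum of 5 gave 115, and a pseudocount of 0.1 gave 166. Medians in met1-3 shoots lay between 8.20 and 8.37 with a library left out.

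Of the limma calls, 861 in all (663 higher, 198 lower), leaving out a library gave 403 to 921 (312 to 738 higher, 76 to 184 lower), with the filter kept at 3 libraries. The fewest calls in all came without ddcc replicate 2, and the fewest lower calls without Col-0 replicate 2. Total counted reads gave 440 higher and 787 lower, total nuclear reads 299 lower, and an adjusted p under 0.05 without a fold threshold 3634 (2219 and 1415). The replicate block gave 1017 calls with 298 lower, and among list genes outside the rule 8 higher and 32 lower in place of 5 and 18. The numbers were not taken as pairs, since deviations of same-numbered libraries correlated at 0.27, 0.02 and 0.05, and replicate 1 alone matched its own number best. For those list genes, total counted reads gave 2 higher and 40 lower, and leaving out Col-0 replicate 1 gave 9 higher (both chosen after seeing the data). The other 49 alternatives moved their result by less than the spread between libraries or by less than 1.5 times.

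Depth limits the genes near the Col-0 minimum, and with 3 libraries a group the calls are sensitive to single libraries. Genotype and age are inseparable for met1-3.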
